A study of Drosophila melanogaster with 42 samples.

Results

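HP1 is the founding protein of heterochromatin. It reads histone H3 methylated at lysine 9 through its chromodomain and coats the repeat-rich sequence around centromeres and most of chromosome 4, where it helps to keep transposons silent and chromosomes compact. In flies it is also known at scattered places in the gene-rich arms, where some HP1-bound genes are silent and others are transcribed. The peaks described here are the ones away from the centromeres: those HP1 peaks of adult intestinal stem cells (ISCs) that lay neither on chromosome 4 nor on Y and began more than 5 Mb from the centromere end of their arm. By this rule 682 of 2197 HP1 peaks were members. Of the others, 1306 lay within 5 Mb of a centromere end and are called pericentric, 205 lay on chromosome 4 and 4 on chromosome Y.

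The peaks come from targeted DamID-seq, in which a chromatin protein carries the bacterial methylase Dam to its places on the chromosome and Dam marks the GATC sites nearby. A UAS-Dam-HP1 transgene (Dam-HP1a in the stock list) was driven by esg-gal4ts NREGal80, in which esg-Gal4 acts in intestinal progenitors, a temperature-sensitive Gal80 holds it off and NRE-Gal80 removes activity from Notch-responsive progeny. 3 Dam-HP1 samples were set against 3 Dam-only samples that carry the same driver and an unfused UAS-Dam. Each sample held 60 adult guts of flies kept at 18°C to 3 days of age and then moved to 29°C for 1 day, and the same scheme was used for Dam-Kis, Dam-RNA Pol II, Dam-Trr, Dam-Pc, Dam-Brm and Dam-H1, with 3 samples each. The genotype entries of 2 Dam-HP1 samples carry another number after HP, and these were grouped by their titles. All samples of a fusion entered 1 call, so each peak is an interval with no count, score or replicate value behind it. Depth is unknown, no spread between samples exists, and differences are set against the spread between the 5 chromosome arms.

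As a check of the labelled cell type, RNA Pol II peaks covered the whole body of the ISC genes esg and Sox21a, 79.6% of Delta and 26.4% of spdo. The enteroendocrine hormone genes Dh31, AstC, Tk and AstA, the enterocyte digestive genes lambdaTry, betaTry, Amy-p and Mal-A1 and the muscle genes Mhc and Act57B held 0 RNA Pol II peaks, while the muscle-expressed gene Tm1 had 57.4% and the enterocyte myosin Myo31DF 55.6% of its body in them. NPF, an enteroendocrine hormone gene, had 30.5% of its body in them, more than spdo. The share was 0.977% for the enteroendocrine gene pros, 6.43% for the enterocyte gene nub and 12.8% for the muscle-expressed gene how. The markers of other cell types were thus not all free of RNA Pol II peaks. HP1 peaks were absent from all 4 ISC genes, and equally from every marker of the other cell types except Tm1. Only 3.13% of all distal genes had a member, so this absence does not set the ISC genes apart.

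The limit of 5 Mb did not separate the members cleanly from pericentric heterochromatin. On 2R the last peak left out lay at 4.997 Mb with 2969 bp and the first member at 5.001 Mb with 3192 bp. On 3L the corresponding peaks lay at 4.996 Mb (1909 bp) and 5.003 Mb (3186 bp). On 2L, by contrast, the nearest peak left out was at 4.898 Mb and the first member only at 6.128 Mb. The band from 5 to 6 Mb held 149 members, of which 111 were on 2R, 24 on 3L, 10 on X, 4 on 3R and 0 on 2L. On 2R this single Mb had as many HP1 peaks (111) as the Mb before it (110), and the next Mb had 17. A run of 104 members less than 10 kb apart filled 2R:5001098-5653217 in release 6 of the genome, with 516624 of its 652120 bp inside peaks. The band thus held 597428 of the 1037878 bp in members. The label of peaks outside pericentric regions is therefore not met by the band on 2R, and the 533 members over 6 Mb, a limit chosen after the positions were seen, are given beside the full set.

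**Figure D1:**
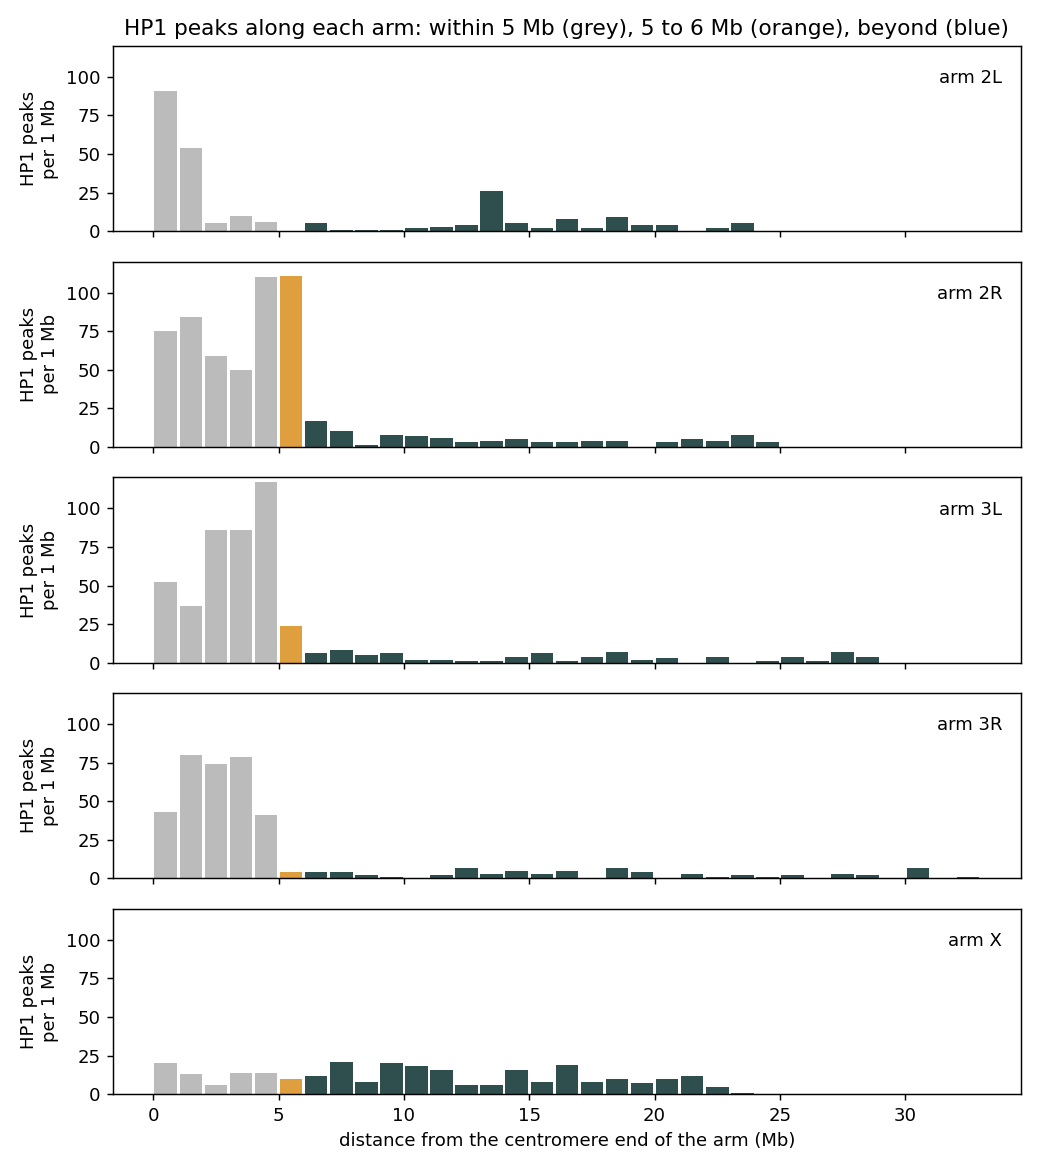
Number of HP1 peaks in each 1 Mb of the 5 arms (vertical axis) against distance from the centromere end in Mb (horizontal axis). Grey bars are pericentric peaks, orange bars members at 5 to 6 Mb and blue bars members over 6 Mb; the orange bar of 111 on 2R continues the grey block, and X has members in every bin over 6 Mb, from 1 to 21 peaks per Mb.

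Members were short. Their median length was 592 bp (quartiles 358 and 1201 bp, range 9 to 44224 bp), against 3034.5 bp for pericentric peaks and 1302 bp for those of chromosome 4. Over 6 Mb the median was 513 bp, and in the band it was 2098 bp. Of the members over 6 Mb, 7 of 533 were at least 5 kb long, compared with 34 of 149 in the band and 511 of 1306 pericentric peaks. Every autosome arm showed the same order: the medians over 6 Mb were 427.5 bp on 2L, 511 bp on 2R, 480 bp on 3L and 507 bp on 3R, while the pericentric medians were 1407.5, 3525, 4199.5 and 3240 bp. The X differed little, with 565 bp over 6 Mb and 606 bp near the centromere. Members over 6 Mb made up 3.05% of all base pairs in HP1 peaks and pericentric peaks 84.5%. The shortest members, 56 of fewer than 100 bp, rest on neighbouring GATC sites.

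**Figure D2:**
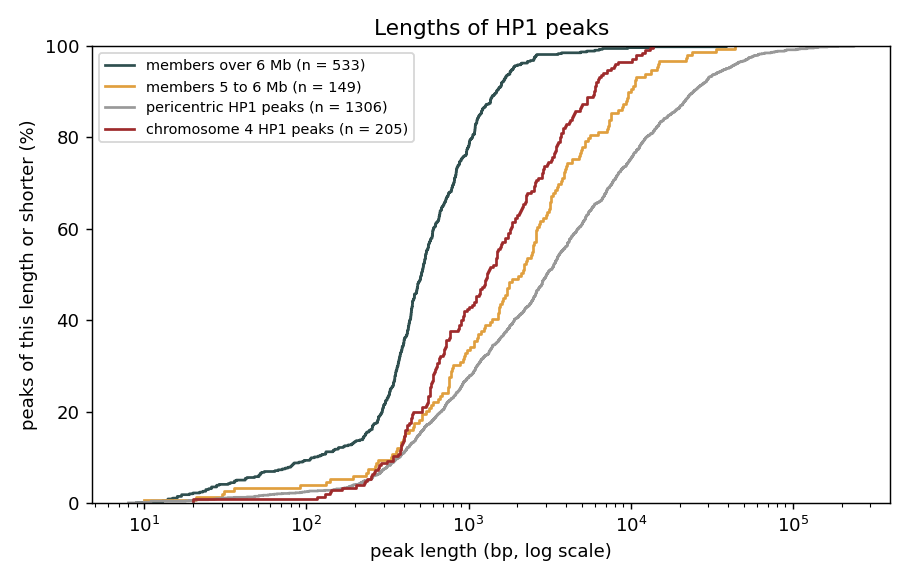
Cumulative share of HP1 peaks (vertical axis, %) by peak length in bp (horizontal log axis) for members over 6 Mb, members at 5 to 6 Mb, pericentric peaks and peaks of chromosome 4. The curve of members over 6 Mb lies left of the others, with a median of 513 bp, and the curve of the band, with 2098 bp, runs between those of chromosome 4 and the pericentric peaks.

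The X held most of the members over 6 Mb for its size. Its 203 members were 38.1% of the set on 17.1% of the sequence. This is a density of 11.6 members per Mb, while 2L had 4.80, 2R 5.08, 3L 3.57 and 3R 2.65 per Mb. The density of X was 2.88 times the mean of the 4 autosome arms, which was 4.02 ± 1.13 (SD, n = 4 arms), and no autosome arm came near it. For the other proteins the same ratio of X to autosome arms was 0.939 for Kismet, 1.06 for RNA Pol II, 1.15 for Trr, 0.909 for Pc, 1.07 for Brm and 1.08 for H1. Within 5 Mb of the centromere the number of HP1 peaks showed the opposite order, with 13.4 per Mb on X and 33.2 to 75.6 on the autosome arms. By base pairs X (18.0% covered) lay close to 2L (19.4%) there, and below 2R, 3L and 3R (68.3%, 79.2% and 59.5%). Whether X and autosomes differed in read depth or GATC density was not tested. The study's DamID methods do not state the sex of the flies.

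Most members stood alone. Joining members less than 10 kb apart gave 432 groups, 345 of them single peaks, and over 6 Mb 335 of 414 groups were single. Starts of neighbouring members over 6 Mb were a median of 72.9 kb apart, and 11 of 106 bins of 1 Mb held none. The most crowded bin was on 2L, 13 to 14 Mb from the centromere end, with 26 members against a median of 4 per bin. Within it, 20 members with 15377 bp fell in 2L:10227607-10477518. They lay in genes such as ova and Ir31a, and 9 of the 20 touched an RNA Pol II peak, beside 36.9% of all members over 6 Mb on 2L. On X, 15 members crowded in X:13755791-13981014, around inaE, which codes for a diacylglycerol lipase, and mamo, which codes for a zinc finger protein needed for germline development. Of these 15, 2 touched RNA Pol II and 10 touched no other list, beside 30.0% and 57.1% of all members over 6 Mb on X. In the next most crowded stretches of X, 5 of 14, 5 of 12 and 5 of 12 members touched RNA Pol II.

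The longest members show how the band and the arms differ. Of the 10 longest, 8 lay in the band on 2R, led by one of 44224 bp at 2R:5555143-5599366, which held no gene and ended 4220 bp from Fis1, a mitochondrial fission gene. The second longest, 38960 bp at 2R:6419835-6458794, lay in a gap 42237 bp from the nearest annotated gene, lncRNA:CR46075, and shared 8019 bp with Kismet and 8019 bp with RNA Pol II. Far from any centromere, a member of 13832 bp at 3L:17860635-17874466 enclosed the pseudogene CR43086, 10.2 Mb from the centromere end, and touched no other list. Next over 6 Mb came 9595 bp inside Msp300 on 2L, 18.3 Mb from the centromere end, 6690 and 6389 bp in the same gap on 2R as the 38960 bp member, and 6007 bp inside para on X. A member of 5359 bp on X, 268 bp from inc, lay wholly inside both a Trr and a Pc peak.

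Members over 6 Mb were mostly genic. Of the 533, 341 (64.0%) lay inside a gene body, 118 (22.1%) crossed the end of a gene, 8 held a whole gene and 66 (12.4%) lay between genes. Among pericentric peaks 56.0% were inside a body, 7.81% crossed a gene end and 32.8% lay between genes. By base pairs 67.8% of the members over 6 Mb was genic, or 74.4% without the 38960 bp member on 2R, against 73.9% of the same sequence as a whole. For all 682 members the genic share was 55.2%, for the band 45.9% and for pericentric peaks 41.5%. Counted as peaks, 87.6% of the members over 6 Mb touched a gene, against 77.9% of windows of 592 bp laid end to end along the same sequence, 73.2% in the band and 67.2% of pericentric peaks. The members over 6 Mb thus touched genes more often than the windows did, while their genic share by base pairs was not higher.

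In all, 506 annotated genes had at least 1 bp in a member, all matched to a FlyBase identifier, and 461 of them had a member over 6 Mb. Without X the count fell to 332 genes. Protein-coding genes made up 454, with 26 lncRNAs, 10 antisense RNAs, 9 pseudogenes, 5 miRNAs and 2 tRNAs. Of the 16114 genes lying wholly over 5 Mb from the centromere end, 504 had a member, or 3.13%, while 16.4% of the 1456 pericentric genes had a pericentric HP1 peak. Members covered little of each gene: the median share of the body was 10.5%, and 8.96% for genes with a member over 6 Mb. For the 239 pericentric genes with a pericentric HP1 peak, the median share in HP1 peaks was 71.5%. A single member was found in 427 genes and 3 or more in 30. Genes with a member were long, with a median of 4089.5 bp against 1712 bp for all distal genes. Over 6 Mb, 1.75% of genes shorter than 2000 bp had a member, 2.92% of those from 2000 to 10000 bp and 9.20% of longer ones.

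By base pairs in members, the leading genes belonged to the band on 2R. Nipped-A (FBgn0053554, 2R:5177965-5251022), the Tra1 subunit of SAGA and Tip60 histone acetyltransferase complexes, had 60345 of its 73058 bp in 16 members and held 0 bp of the other 6 lists. Ugt50B3, a UDP-glycosyltransferase gene, had 36763 bp, stw, a laccase gene of cuticle tanning, 32556 bp, d4, a PHD finger gene, 26290 bp, CG30440 23896 bp and the ionotropic receptor gene Ir41a 20373 bp. Then followed, in the same band, sxc with 9068 bp, which codes for the O-GlcNAc transferase, hrm with 8414 bp and Atf6, a factor of the unfolded protein response, with 8063 bp. In stw, d4 and sxc 1126, 726 and 821 bp lay in both HP1 and RNA Pol II peaks, so RNA Pol II and HP1 peaks met in some genes of this block. The longest members also lay in or near lncRNA:CR42646 and the troponin C gene TpnC41C. On 3L, nrm, a cell adhesion gene, had 9347 bp in 11 members.

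**Figure D3:**
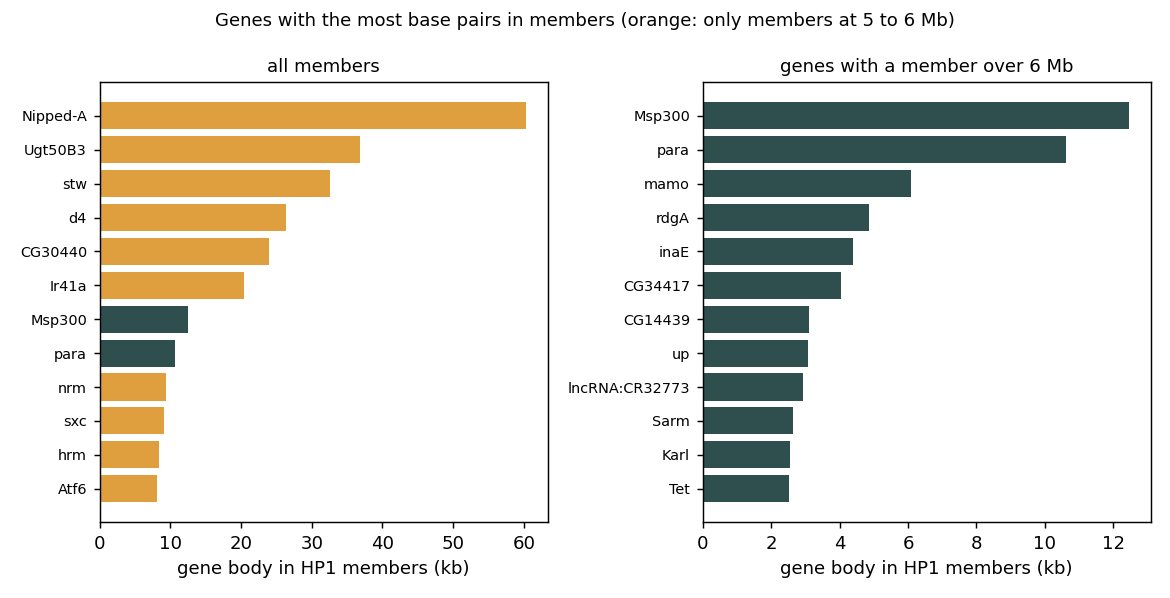
Base pairs of gene body in members, in kb (horizontal axis), for the 12 genes with the most base pairs (left) and the 12 with the most among genes that have a member over 6 Mb (right). Orange bars mark genes whose members all lie at 5 to 6 Mb; Nipped-A leads the left panel with 60345 bp and Msp300 the right one with 12463 bp.

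Away from the band, Msp300 (FBgn0261836, 2L:5100877-5207002), which codes for a giant nesprin-like protein that anchors nuclei in muscle, had 12463 bp in 3 members. The same gene held 14407 bp of Kismet peaks and 8010 bp of RNA Pol II peaks, but 0 bp in common with HP1. The sodium channel gene para (FBgn0285944, X:16455027-16533096) had 10609 bp in 6 members and 0 bp of any other list. The other leading genes over 6 Mb, named after their values were seen, were mostly on X. In mamo 6095 bp lay in 8 members, in rdgA, a diacylglycerol kinase gene, 4852 bp in 6, in inaE 4400 bp in 4, in CG34417 4031 bp in 6, and in the troponin T gene up 3083 bp in 2. RNA Pol II peaks held 0 bp of up, while mamo held 20048 bp of them, with 0 bp in common with HP1.

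Wholly inside members lay 16 genes, among them dhd, a thioredoxin gene of the female germline (955 bp on X). Its neighbour TrxT, a testis thioredoxin gene, had 43.0% of its body covered. The miRNA genes mir-310, mir-311, mir-312 and mir-313, which form 1 cluster on 2R, were all covered by 1 member. These genes were chosen after their values were seen.

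Few genes of the fixed lists had members, and the lists, counted over genes lying wholly over 5 Mb from the centromere end, are read beside the 3.13% of all such genes. Of 25 heterochromatin protein genes, 2 had a member (8%): wde, a partner of the H3K9 methyltransferase Eggless, with 727 bp that also lay in Kismet, RNA Pol II and Trr peaks, and Su(var)2-HP2, an HP1-binding protein, with 219 bp that also lay in RNA Pol II peaks. Ion channel and synaptic genes, which are long, had 6 of 56 (10.7%), namely para, Sh (1963 bp in 3 members), KCNQ (1754 bp), Rdl (821 bp), Ih (429 bp) and nAChRalpha6 (277 bp). In KCNQ all 1754 bp were shared with Kismet, RNA Pol II and Trr, whereas Sh and Rdl held 0 bp of any other list. Of the dpr and DIP cell surface genes, 3 of 28 had a member (10.7%; these genes are long too, and 9.20% of all genes of 10000 bp or more had one), DIP-alpha with 1841 bp, dpr19 with 368 bp and dpr20 with 20 bp. Gustatory, olfactory and ionotropic receptor genes had 3 of 177 (1.69%), with Ir31a covered over 75.6% of its body, Or13a over 31.7% and Ir21a over 21.3%.

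Among signalling genes, 1 of 19 distal genes of the Notch pathway had a member (5.26%), N itself with 1062 bp. In the EGFR pathway it was 2 of 20 (10%), the kinases Raf with 451 bp and Dsor1 (MEK) with 71 bp. Genes of both pathways are long, with median bodies of 6978 and 13687.5 bp against 1712 bp for all distal genes. The EGFR share thus lay near the 9.20% of genes of 10000 bp or more. Cytoplasmic ribosomal protein genes had 2 of 81, RpL10 with 690 bp and RpS19b with 440 bp, both wholly shared with RNA Pol II. Cytochrome P450 genes had 1 of 81, Cyp311a1 with 296 bp, the other homeobox genes 1 of 57, Ptx1 with 34 bp, and the muscle list 1 of 4, Tm1 with 492 bp. Hox, cuticle protein, chorion, serine protease and seminal fluid genes had 0 of 8, 122, 3, 35 and 46.

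Members met RNA Pol II more often than any other protein. At least 1 bp of an RNA Pol II peak was shared by 224 of 682 members, or 32.8% (95% Wilson interval 29.4% to 36.5%, counting error only), whereas 14.6% of adjoining windows of 592 bp along the distal sequence touched one. For Kismet, the CHD7/8-like remodeler, the count was 145 (21.3%) against 16.3% of windows, and for Trr, an H3K4 methyltransferase, 113 (16.6%) against 7.11%. Pericentric peaks touched these lists in 4.29%, 1.45% and 1.15% of cases. None of these 3 lists shares Dam-only samples with HP1. Over 6 Mb the shares were 38.6% for RNA Pol II, 26.8% for Kismet and 21.2% for Trr, and in the band 12.1%, 1.34% and 0 of 149 members. Windows disregard GATC sites and are all of 1 length, so they give the level of the sequence and not a test.

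**Figure D4:**
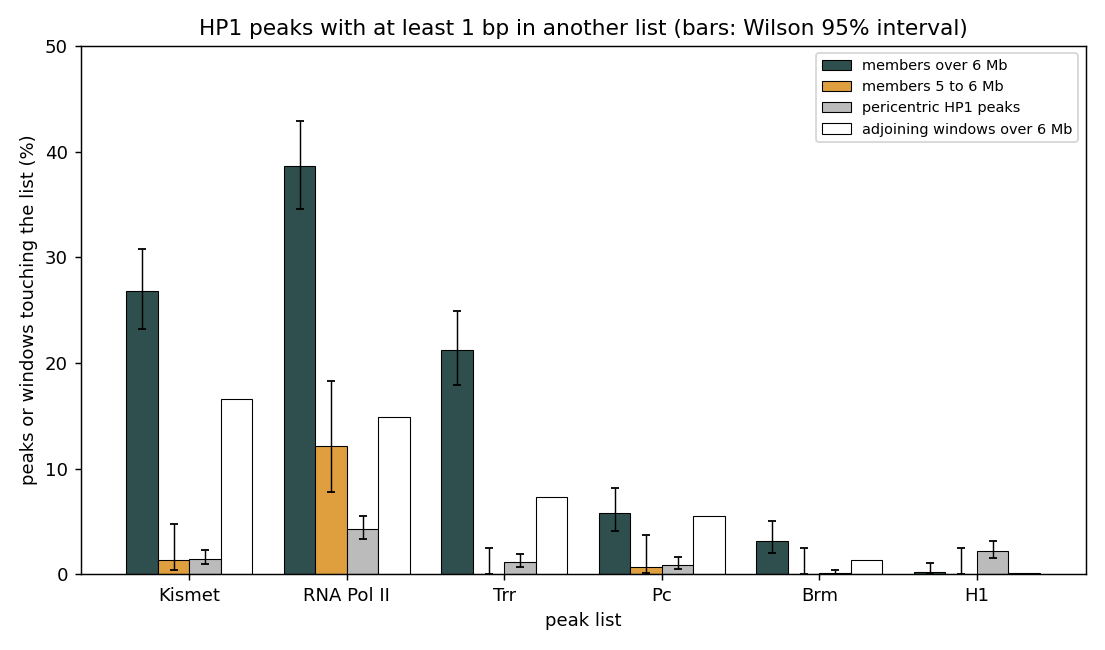
Share of peaks or windows with at least 1 bp in a peak of each other list (vertical axis, %), for members over 6 Mb, members at 5 to 6 Mb, pericentric HP1 peaks and adjoining windows of 592 bp over 6 Mb, with 95% Wilson intervals on the peak sets. For RNA Pol II the members over 6 Mb stand at 38.6%, the windows at 14.9% and pericentric peaks at 4.29%; Pc, Brm and H1 share Dam-only samples with HP1.

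The excess over windows was seen on every arm for RNA Pol II and Trr. The share of members over 6 Mb touching RNA Pol II was 36.9% on 2L, 49.0% on 2R, 48.1% on 3L, 40.6% on 3R and 30.0% on X, a mean of 40.9 ± 7.92% (SD, n = 5 arms), while windows ran from 13.6% to 16.7%. For Trr the arms ran from 17.4% to 27.8% and windows from 6.44% to 8.21%. For Kismet the arms ran from 19.0% to 34.7% and windows from 15% to 18.4%, and on 2L, with 19.0% against 15.6%, the gap was small. On X 30.0% of members touched RNA Pol II (95% Wilson interval 24.2% to 36.7%), and on the autosome arms together 43.9% (38.7% to 49.3%). Windows did not differ in this way (15.3% and 14.8%). These intervals hold counting error only and leave out the spread between arms. The lowest autosome arm, 2L with 36.9%, lay just above the interval of X. Whether X differs from the autosome arms beyond that spread was not tested.

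How much was shared depended on the measure. Peaks begin and end at GATC sites, so 2 peaks that merely abut share the 4 bp of 1 site, and this was all that 54 of the 224 members shared with RNA Pol II. Without them 24.9% of members touched RNA Pol II, against 14.6% of windows, 17.2% touched Kismet, against 16.3%, and 12.6% touched Trr, against 7.09%. Over 6 Mb, where the band and its 0 such Kismet overlaps are left out, the shares above 4 bp were 30.2% for RNA Pol II (windows 14.8%), 22.0% for Kismet (16.6%) and 16.1% for Trr (7.25%). The Kismet share thus stood near the level of the sequence for all members and above it over 6 Mb. By base pairs of the members over 6 Mb, RNA Pol II held 22.3% of their base pairs against 11.6% of the sequence, Kismet 17.0% against 14.4% and Trr 10.1% against 4.91%. At least 50% of the member lay in an RNA Pol II peak in 23.0% of cases (windows 11.5%), in a Kismet peak in 16.0% (14.1%) and in a Trr peak in 11.1% (4.63%), and over 6 Mb the Kismet share by this measure was 20.5% (14.3%).

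The neighbourhood of the members was itself rich in these peaks. At the middle of the members over 6 Mb, 28.7% lay in an RNA Pol II peak, and at 5 kb to either side 22.3% and 19.0%, all above the 11.6% of the sequence. For Trr the middle gave 14.4%, and positions 5 kb away 9.76% and 8.65%. Kismet had no maximum there, with 20.5% at the middle and 23.6% and 22.2% at 5 kb, again above the 14.4% of the sequence. Members thus lay in stretches with more Kismet, RNA Pol II and Trr than average, with Trr highest at the middle and RNA Pol II raised over a wider stretch that took in the flanks, where it reached 29.8% at 500 bp on one side and 29.1% at 1000 bp on the other.

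**Figure D5:**
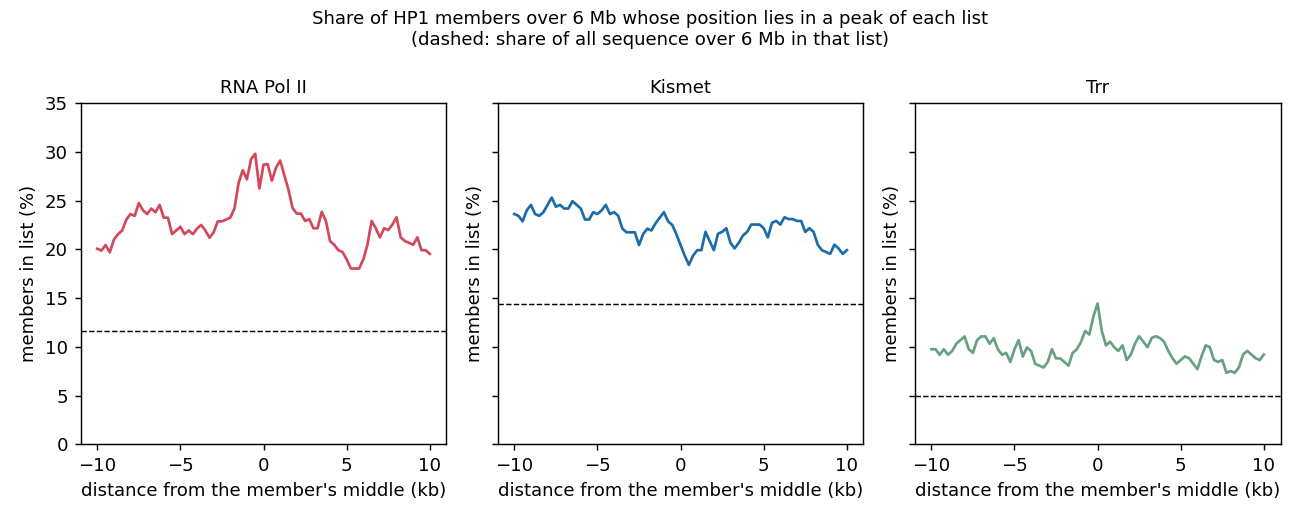
Share of members over 6 Mb (vertical axis, %) whose position at a given distance in kb from the member's middle (horizontal axis) lies in a peak of RNA Pol II, Kismet or Trr, in steps of 250 bp, with the share of all sequence over 6 Mb in that list as a dashed line. Trr peaks at the middle (14.4%), RNA Pol II forms a broad rise that includes the flanks (28.7% at the middle), Kismet has no maximum there, and all 3 lines stay above their dashed line out to 10 kb.

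Seen from the other lists, the shares were small, and members covered only 0.965% of the distal sequence. No level of the sequence was computed for shares in this direction. Members touched 221 of 6283 distal RNA Pol II peaks (3.52%), 141 of 4262 Kismet peaks (3.31%) and 111 of 4536 Trr peaks (2.45%). Pc, the Polycomb reader of H3K27 methylation, was touched by 32 members (4.69%, windows 5.44%), Brm, the SWI/SNF ATPase, by 17 (2.49%, windows 1.29%) and H1, the linker histone, by 1 (0.147%, windows 0.0716%). These counts are low, but Brm and H1 peaks covered only 0.494% and 0.0256% of the distal sequence. The Brm share lay above its windows, also over 6 Mb (3.19%, windows 1.31%), while the Pc share lay near them. Above 4 bp the Brm gap was smaller and rested on 12 members (1.76%, windows 1.28%, and over 6 Mb 2.25%, windows 1.3%). Members touched 31 of 2016 distal Pc peaks (1.54%), 18 of 1482 Brm peaks (1.21%) and 1 of 91 H1 peaks (1.10%). Among pericentric peaks 12 of 1306 touched Pc, 1 Brm and 29 H1. The calls of HP1, Brm and H1 rest on the same 3 Dam-only samples and that of Pc on 1 of them, so these counts are given as the lists hold them.

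No other list was touched by 399 of the 682 members (58.5%) and by 1208 of the 1306 pericentric peaks (92.5%). Over 6 Mb 269 of 533 members (50.5%) touched none, and 252 touched Kismet, RNA Pol II or Trr. The share of windows touching no list was not counted, so these shares do not set members apart from the sequence. Most windows over 6 Mb missed each single list: 16.6% touched Kismet, 14.9% RNA Pol II, 7.28% Trr and 5.54% Pc. The largest combinations among all members were RNA Pol II alone with 85, Kismet, RNA Pol II and Trr together with 54, Kismet and RNA Pol II with 34, RNA Pol II and Trr with 31, Kismet alone with 27 and Pc alone with 12. Members over 6 Mb that touched none and those that touched an active list were of like length, 530 and 484 bp at the median. X held 43.1% of the former and 31.7% of the latter.

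Genes with a member more often held RNA Pol II somewhere in their body. Among genes wholly over 6 Mb from the centromere end, 42.2% had an RNA Pol II peak, 24.3% a Kismet peak and 21.3% a Trr peak, and among the 460 of them with a member over 6 Mb these shares were 68.3%, 47.2% and 48.3%. Gene length moved with this. Within the genes of 10000 bp or more the RNA Pol II shares were 86.7% with and 58.1% without a member, from 2000 to 10000 bp 61.3% and 52.6%, and below 2000 bp 55.9% and 31.9%. The order was thus the same in each class of length, with the smallest gap in the middle one. For Kismet the shares with and without a member were 86.1% and 59.1%, 35.3% and 28.1%, and 18.4% and 14.6% in the same classes. The peaks need not coincide inside the gene, as Msp300 shows.

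Some genes held long stretches in HP1 and another list at once. In tna, a Trithorax-group SUMO ligase gene on 3L, all 2477 bp in 2 members lay in Kismet peaks and 2097 bp in Trr peaks. In Smr, a nuclear corepressor gene on X, and in lncRNA:CR43963 within it, the same 2470 bp in 2 members all lay in Kismet peaks, with 853 bp in Brm peaks. In sov, a zinc finger gene required for heterochromatin in the ovary, RNA Pol II peaks held 2178 of the 2466 bp in its member. In mew, an integrin alpha gene, all 1906 bp in members lay in both Kismet and RNA Pol II peaks, and in SNF4Agamma, the AMPK gamma subunit gene on 3R, all 1441 bp lay in both Kismet and Trr peaks. With Pc the leading genes were sbm, an amino acid transporter gene (994 bp), mael, a piRNA pathway gene (947 bp), and Fer1, a bHLH factor gene (888 bp), none with any Kismet, RNA Pol II or Trr peak. For Brm, kirre, a muscle founder cell adhesion gene, had 844 bp after Smr and lncRNA:CR43963, and Pgant5, a glycosyltransferase gene, held the 298 bp member that lay wholly in an H1 peak.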

How the data were processed

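Per the study's methods, the authors ran damidseq_pipeline with Bowtie2 on release 6 of the D. melanogaster genome, extended reads to 300 nt or the first GATC, counted them per site with bedtools, discarded sites under 5 counts on average, and tested each fusion against Dam-only samples with DESeq2. At least 2 consecutive sites with a positive log2 fold change and an adjusted p below 0.01 were merged into a peak. Tool versions are not given in the sources used here. The 7 deposited peak lists give arm, start and end only. RNA-seq samples were not used here.

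Arm ends were the last RefSeq gene or peak. Genes came from the RefSeq table of the same release (17684 genes on 6 arms, no strand or sequence), so promoters were not analysed. Touching needed at least 1 bp. No test was run: shares have 95% Wilson intervals and are set beside 181599 adjoining windows of the members' median length (592 bp). Interval code was tested on simulated data (1000 queries, 0 differences). Members and gene lists were chosen with earlier results of these data known. Genes named are the 12 with the most base pairs in members, the 8 protein-coding ones likewise, those at the 10 longest members, the 3 with the most base pairs shared with each other list, and list genes where a list had at most 8; others are said to be chosen after their values were seen. Alternatives changed the distance, length, joining, overlap and gene rules, telomere ends and arms. Python 3.11.15, NumPy, SciPy and matplotlib were used.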

Additional observations from a re-analysis of the deposited data

How the results depend on the processing

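Over 3 Mb there were 1209 peaks with a median of 918 bp, and 13.2% touched Kismet, 21.1% RNA Pol II, 10.3% Trr, 1.49% Brm, 1.65% H1 and 71.6% no other list. Over 8 Mb there were 445 peaks with a median of 507 bp and a genic share of 78.7%, and 27.0% touched Kismet, 38.4% RNA Pol II, 21.1% Trr and 50.6% none. Over 6 Mb, chosen after seeing the data, the median was 513 bp and the shares 26.8%, 38.6%, 21.2% and 50.5%. Members of at least 1000 bp numbered 216 (median 1800.5 bp, 156 genes), and 15.3% touched Kismet, 25.9% RNA Pol II, 10.2% Trr, 0% H1 and 66.2% none. With members less than 1 kb apart joined, 24.7% touched Kismet, 37.6% RNA Pol II and 52.3% none. Asking for 50% of the HP1 peak gave 16.0% for Kismet, 23.0% for RNA Pol II, 11.1% for Trr, 1.17% for Brm and 69.6% for none, and asking for more than 4 bp, also chosen after seeing the data, gave 17.2%, 24.9%, 12.6% and, for none, 66.3%. At least 50% of the gene body lay in members in 77 genes, and bodies extended by 1 kb gave 837 genes. Leaving out each arm in turn gave medians of 524 to 635 bp, 332 to 438 genes (the lowest without X) and 0% to 0.213% touching H1 (0% without 2L, which holds the only such member). Leaving out 500 kb at the telomere ends, counting protein-coding genes only and joining clusters at 2 or 50 kb moved no value beyond its interval or 1.5 times. No paired analysis was possible because each list is 1 call over all samples. The promoter comparison planned was not run, as no sequence was used.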

Other observations

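The HP1 list also held 4 peaks on chromosome Y, outside the members by the rule. Their lengths were 463155, 249074, 16497 and 3384 bp, and the longer 2 exceeded every member and every pericentric peak, of which the longest had 238763 bp.

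Some members lay in genes known from the germline or from dosage compensation, all chosen after their values were seen. No list of germline genes was counted, so no share stands beside them. In nanos, a translational repressor of the germline, 1066 bp lay in a member with 0 bp of RNA Pol II, and in swa, a gene of bicoid mRNA localisation, 860 bp did likewise. Other germline genes went the other way: all 425 bp in the member of exu and all 480 bp in that of stil lay in RNA Pol II peaks. In ova, a female germline gene known for a link between HP1 and histone demethylation, 1997 of 3933 bp lay in 2 members, and 1339 bp of the gene lay in RNA Pol II peaks. The sex determination gene Sxl had 1704 bp in 3 members. The roX2 RNA gene of the X dosage compensation complex had 1010 of its 1368 bp in a member and 222 bp in RNA Pol II peaks. PGRP-LC, the receptor of the Imd immune pathway, had 1473 bp in 3 members.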
